A study of Mus musculus with 23 samples.

Results

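Haemoglobin carries oxygen in red blood cells, and 6 genes tied to that task were followed through 23 RNA-seq libraries of the mouse hippocampus, a brain region of memory and stress responses. They were chosen by name out of the 39017 genes in the deposited tables. Hbb-bs and Hbb-bt encode adult beta globin, and Hba-a1 and Hba-a2 encode adult alpha globin. Alas2 encodes the aminolevulinate synthase of red cell precursors, and Bpgm encodes bisphosphoglycerate mutase.

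The study sequenced poly(A) RNA of hippocampi from wild-type (WT) mice and from mice labelled Nrsn2-KO, either undefeated or after chronic social defeat stress (CSDS). In that protocol a mouse met an unfamiliar aggressive CD-1 mouse for 5 min on each of 10 days and spent the rest of the day behind a perforated divider in the same cage. The groups were WT after CSDS, WT controls, knockout-labelled mice after CSDS and knockout-labelled controls, with 5 libraries each whose title and treatment field named the same condition. In 3 further libraries the title says control and the treatment field says CSDS: these are numbered 9B in WT and 10B and 11 under the knockout label, and they are given only as single values. The labels give no age, sex, strain or allele, and they name the libraries by number only, so the p-values measure the spread between these libraries, which may be technical.

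Red blood cells fill themselves with haemoglobin while they mature in the marrow, and young ones still carry globin RNA when they enter the blood. Haemoglobin joins alpha and beta globin chains around haem, whose synthesis in these cells starts with the Alas2 enzyme. Bpgm makes bisphosphoglycerate, which loosens the hold of haemoglobin on oxygen. Hippocampal tissue contains the blood of its vessels, and globin RNA has also been described in some neurons and glia. In bulk tissue RNA, fewer cells of a type and less RNA per cell cannot be told apart.

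The alpha and beta genes lie in clusters of near-identical copies. In mm10, Hbb-bs (ENSMUSG00000052305) spans 103826534 to 103828096 and Hbb-bt (ENSMUSG00000073940) spans 103812524 to 103813996, both on the minus strand of chromosome 7. Hba-a1 (ENSMUSG00000069919) spans 32283511 to 32284465 and Hba-a2 (ENSMUSG00000069917) spans 32296489 to 32297298, both on the plus strand of chromosome 11. Alas2 (ENSMUSG00000025270) lies on the plus strand of chromosome X from 150547375 to 150570638, and Bpgm (ENSMUSG00000038871) lies on the plus strand of chromosome 6 from 34476207 to 34505613.

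The copies of each globin are hard to tell apart by a 75-base read. The coding sequences of Hbb-bs and Hbb-bt, 444 bases each, differ at 1 base, and those of Hba-a1 and Hba-a2, 429 bases each, also differ at 1 base (99.8% identity in each pair). The 75-base coding windows below hold that base in capitals, in exons of the GENCODE mouse annotation on mm10, and they are shown because only reads across it, or reads in the untranslated ends, separate the copies.
Hbb-bs, chr7:103826665-103826739, minus strand: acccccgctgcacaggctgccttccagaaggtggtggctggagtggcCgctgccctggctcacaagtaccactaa
Hbb-bt, chr7:103812656-103812730, minus strand: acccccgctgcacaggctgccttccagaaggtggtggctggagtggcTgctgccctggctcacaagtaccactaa
Hba-a1, chr11:32284306-32284380, plus strand: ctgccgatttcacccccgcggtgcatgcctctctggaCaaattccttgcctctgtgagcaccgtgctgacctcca
Hba-a2, chr11:32297123-32297197, plus strand: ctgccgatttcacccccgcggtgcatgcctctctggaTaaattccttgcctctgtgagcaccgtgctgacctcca
Of all 75-base stretches of the transcript, 64.3% of those of Hbb-bs are found in Hbb-bt and 56.6% of those of Hbb-bt in Hbb-bs. For the alpha pair, 62.2% of the Hba-a1 stretches are found in Hba-a2 and 81.0% of the Hba-a2 stretches in Hba-a1, while no Hbb-bs stretch is found in Hba-a1. How the authors' counting treated reads that match both copies is not given in the sources used here. The level of a single copy is therefore uncertain. A rise in both copies of a pair is therefore not a pair of independent observations.

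The stretches just before the transcription starts were compared because 5 of the 6 genes moved together in the results that follow. The lines give 100 bases ending at the base before the RefSeq start (GRCm38.p6, the assembly of mm10), with 4 motifs in capitals on either strand. The motif CACCC is the core of a box bound by Klf factors, the motif TATAA is the core of the TATA box, the motif AGATAA is bound by GATA factors, and the last is the motif CCAAT.
Hbb-bs, chr7:103827929-103828028, minus strand: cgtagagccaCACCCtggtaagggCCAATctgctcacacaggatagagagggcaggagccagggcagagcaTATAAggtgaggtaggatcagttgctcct
Hbb-bt, chr7:103813924-103814023, minus strand: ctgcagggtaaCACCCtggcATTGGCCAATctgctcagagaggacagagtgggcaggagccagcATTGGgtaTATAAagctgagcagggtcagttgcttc
Hba-a1, chr11:32283572-32283671, plus strand: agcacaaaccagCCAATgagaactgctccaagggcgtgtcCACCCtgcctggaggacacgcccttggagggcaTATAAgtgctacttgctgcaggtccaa
Hba-a2, chr11:32296392-32296491, plus strand: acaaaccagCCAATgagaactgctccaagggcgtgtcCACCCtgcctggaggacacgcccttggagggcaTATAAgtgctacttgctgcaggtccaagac
Alas2, chrX:150547317-150547416, plus strand: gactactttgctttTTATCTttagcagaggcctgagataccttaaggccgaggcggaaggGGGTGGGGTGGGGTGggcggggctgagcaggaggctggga
Bpgm, chr6:34476256-34476355, plus strand: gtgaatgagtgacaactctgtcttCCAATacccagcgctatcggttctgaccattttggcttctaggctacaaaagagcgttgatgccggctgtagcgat
All 4 globin stretches hold CACCC along with the motif CCAAT and the motif TATAA, a set found in 155 of 32851 RefSeq promoters over the same 100 bases (0.472%). The TATAA starts 29 bases before the start in Hbb-bs, 28 in Hbb-bt, 27 in Hba-a1 and 30 in Hba-a2. In the beta genes CACCC lies farther from the start than the nearest forward CCAAT, and in the alpha genes CCAAT lies farther out than CACCC. The Alas2 stretch holds AGATAA on the minus strand, 86 bases before the start, and 3 abutting CACCC on the minus strand, with neither CCAAT nor TATAA. The Bpgm stretch holds 1 CCAAT and none of the other motifs. Taken alone, CACCC occurs in 27.2% of the promoters, CCAAT in 18.9%, TATAA in 10.2% and AGATAA in 3.59%, and no motif overlaps another in the lines above. The deposited gene models of these genes begin at other bases than the RefSeq starts, and a match to a motif is a description of letters only.

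Genes of 1 exon served to estimate depth, since 94.4 to 95.5% of their low values lay within 0.05 of a whole number of reads, and gave 25.6 to 55.6 M reads per library with a median of 44.6 M. Levels are RPKM, reads per kilobase of gene scaled to library size, as the authors deposited them. The gene named in the genotype label was not lower in the libraries that carry it: Nrsn2 was at 32.0 to 37.4 RPKM in knockout-labelled libraries after CSDS and 28.0 to 33.1 in knockout-labelled controls, against 27.3 to 33.3 in WT after CSDS and 25.3 to 31.5 in WT controls. Every direction between genotypes therefore rests on the label. The control numbered 10 of each genotype had 48.2 to 56.5 RPKM of Xist, a transcript of female cells, against 0.0347 to 0.0618 in the other 18 libraries of the 4 groups, so sex was not balanced between CSDS and control. The library WT CSDS 3 stood apart by its haemoglobin, and the calls on the 6 genes are given with and without it. It was picked by these same values, so smaller p-values without it are no independent support.

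Haemoglobin RNA was higher after defeat in the WT hippocampus. Hbb-bs was at 145, 142, 676, 182 and 148 RPKM in WT CSDS libraries 1 to 5, against 51.8, 59.7, 71.7, 47.9 and 62.6 RPKM in WT controls 6 to 10. All 5 defeated libraries lay above all 5 controls, and library 3 lay far above the other 4. Hbb-bs averaged 259 ± 234 RPKM in WT after CSDS and 58.7 ± 9.37 RPKM in WT controls (SD, n = 5 each). The log2 fold change on the log2(RPKM + 0.5) scale was 1.82 ± 0.39 (SE, limma adjusted p = 0.00857). Without WT CSDS 3 the defeated mean was 154 ± 18.6 RPKM (SD, n = 4) and the log2 fold change was 1.39 ± 0.12 (limma adjusted p = 0.000539).

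Its neighbour Hbb-bt had almost the same values. It was at 141, 133, 668, 175 and 143 RPKM in WT CSDS libraries 1 to 5, against 52.4, 59.2, 68.5, 47.0 and 59.6 RPKM in WT controls 6 to 10. The groups did not overlap, and the order of the 5 defeated libraries was that of Hbb-bs. The log2 fold change of Hbb-bt was 1.80 ± 0.39 (SE, limma adjusted p = 0.00966), and 1.36 ± 0.11 without WT CSDS 3 (limma adjusted p = 0.00046).

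Alpha globin moved with beta globin. Hba-a1 was at 138, 129, 654, 155 and 144 RPKM in WT CSDS libraries 1 to 5, against 58.0, 60.7, 71.0, 50.3 and 53.3 RPKM in WT controls 6 to 10. Hba-a2 was at 163, 152, 801, 187 and 171 RPKM in WT CSDS libraries 1 to 5, against 67.9, 72.3, 84.7, 60.1 and 64.2 RPKM in WT controls 6 to 10. For both genes the lowest defeated library, number 2, was above the highest control, number 8. The log2 fold change of Hba-a1 was 1.71 ± 0.39 (SE, limma adjusted p = 0.0124), and 1.27 ± 0.09 without WT CSDS 3 (limma adjusted p = 0.000398). That of Hba-a2 was 1.72 ± 0.40 (SE, limma adjusted p = 0.0132), and 1.27 ± 0.10 without WT CSDS 3 (limma adjusted p = 0.000398).

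The haem synthesis gene of red cells followed at a far lower level. Alas2 was at 1.73, 1.41, 8.26, 1.51 and 1.69 RPKM in WT CSDS libraries 1 to 5, against 0.554, 0.567, 0.727, 0.600 and 0.726 RPKM in WT controls 6 to 10. The groups did not overlap, and library 3 again was the highest. The log2 fold change of Alas2 was 1.29 ± 0.37 (SE, limma adjusted p = 0.0300), and 0.88 ± 0.08 without WT CSDS 3 (limma adjusted p = 0.00056). The added 0.5 understates the fold of so low a gene: the ratio of mean RPKM in WT after CSDS to that in WT controls was 4.60, and 2.50 without WT CSDS 3. The call was lost with no filter on low values (adjusted p = 0.0551) and without WT control 6, 7 or 9, where the adjusted p lay between 0.0582 and 0.0612. The reads behind Alas2 numbered 50 to 1044 per library. Alas2 shares 311 exonic bases with Apex2 on the opposite strand, and the library kit does not keep strand, so these reads cannot be told apart. Apex2, a DNA repair gene, was at 0.720 to 1.06 RPKM in WT after CSDS, with library 3 the highest, against 0.677 to 0.830 RPKM in WT controls.

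Bpgm did not move with the others. It was at 13.0, 13.7, 14.3, 12.4 and 13.2 RPKM in WT CSDS libraries 1 to 5, against 13.5, 13.0, 12.5, 13.7 and 12.6 RPKM in WT controls 6 to 10. The groups overlapped over most of their range, and library 3 was only 1.09 times the mean of the other defeated libraries. The log2 difference was 0.02 ± 0.04 (SE, limma adjusted p = 0.695), with a 95% confidence interval of −0.07 to 0.11.

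In all, 5 of the 6 genes rose in WT after CSDS, where 9.88% of all 18274 genes tested were called higher. Groups that do not overlap, with the defeated libraries higher, were found for the same 5 genes and for 7.49% of all genes tested. Each of the 5 had an exact permutation p = 0.00794, the smallest that 5 against 5 libraries allow (two-sided). The 4 genes of globin together held 557 to 2799 RPKM in WT after CSDS, against 205 to 296 RPKM in WT controls. That was 0.127 to 0.616% of the summed RPKM of a defeated library, against 0.0482 to 0.0703% in WT controls.

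**Figure D1:**
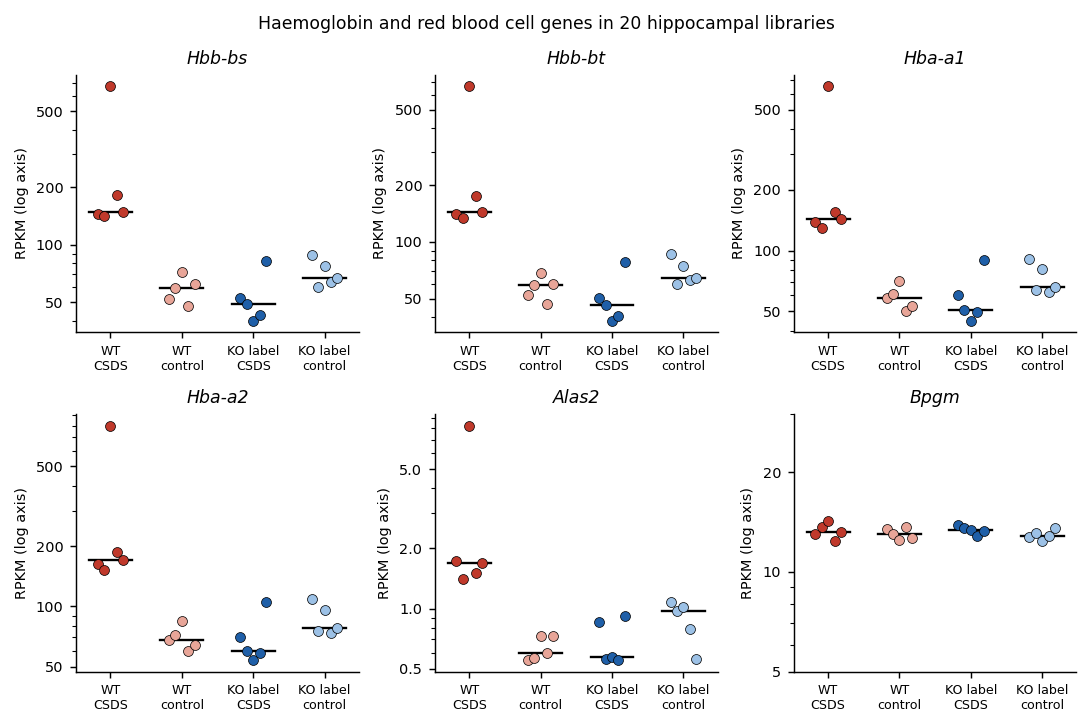
RPKM (log axis) of the 6 genes in the 20 libraries of the 4 groups, where each point is a library and each line the group median. In WT after CSDS the 4 globin genes and Alas2 lie above the other 3 groups, with WT CSDS 3 far above its group (Hbb-bs 676 RPKM), while Bpgm stays between 12.4 and 14.3 RPKM in all 4 groups.

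The size of the WT difference rests in part on WT CSDS 3. That library was above the mean of the other 4 defeated libraries by 4.38 times for Hbb-bs, 4.51 times for Hbb-bt, 4.63 times for Hba-a1, 4.77 times for Hba-a2 and 5.21 times for Alas2. The other 4 libraries were above the WT control mean by 2.63 times for Hbb-bs, 2.58 times for Hbb-bt, 2.41 times for Hba-a1 and for Hba-a2, and 2.50 times for Alas2. The SD of these 4 libraries was 7.51 to 12.3% of their mean for the globin genes and 9.66% for Alas2. The calls rest on the placing of the library WT 9B as well. WT 9B held 48.0 RPKM of Hbb-bs, 47.3 of Hbb-bt, 48.8 of Hba-a1, 58.4 of Hba-a2, 0.684 of Alas2 and 13.3 of Bpgm, and with it counted as CSDS none of the 6 genes was called (limma adjusted p between 0.0828 and 0.101 for the 5).

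In the authors' deposited table, which gives the log2 of control over CSDS, Hbb-bs is at −2.19 in WT with a false discovery rate of 1.23e-12. Alas2 is at −2.18 in the authors' deposited table (false discovery rate 4.2e-09) and Bpgm at −0.02 (0.824). The control mean in the authors' deposited table takes in WT 9B.

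Defeat was not followed by higher haemoglobin RNA in the libraries labelled knockout. Hbb-bs was at 52.9, 48.9, 40.1, 42.7 and 81.9 RPKM in knockout-labelled CSDS libraries 1 to 5, against 88.9, 59.9, 77.2, 64.1 and 67.0 RPKM in knockout-labelled controls 6 to 10. Hbb-bt was at 50.7, 46.3, 38.3, 40.7 and 78.0 RPKM in the same CSDS libraries, against 86.5, 59.9, 74.4, 62.7 and 64.4 RPKM in the controls. In both genes 4 of the 5 defeated libraries lay below every control, and library 5 lay among the controls.

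The alpha genes had the same shape. Hba-a1 was at 60.0, 50.8, 44.9, 49.3 and 89.4 RPKM in knockout-labelled CSDS libraries 1 to 5, against 90.9, 63.4, 81.0, 62.2 and 65.6 RPKM in knockout-labelled controls 6 to 10. Hba-a2 was at 70.7, 59.9, 54.0, 58.8 and 106 RPKM in the same CSDS libraries, against 109, 75.6, 96.3, 73.7 and 77.6 RPKM in the controls. The log2 differences were −0.45 ± 0.18 for Hbb-bs (SE, limma adjusted p = 0.116) and −0.48 ± 0.18 for Hbb-bt (adjusted p = 0.0921). For the alpha genes they were −0.33 ± 0.18 for Hba-a1 (adjusted p = 0.244) and −0.33 ± 0.18 for Hba-a2 (adjusted p = 0.237). None of the 4 passed the adjusted threshold.

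Alas2 was at 0.859, 0.559, 0.573, 0.553 and 0.916 RPKM in knockout-labelled CSDS libraries 1 to 5, against 1.08, 0.975, 1.01, 0.789 and 0.558 RPKM in knockout-labelled controls 6 to 10. The groups overlapped through defeated libraries 1 and 5 and through control 10 (log2 difference −0.21 ± 0.13, limma adjusted p = 0.313). Bpgm was at 13.8, 13.6, 13.4, 12.8 and 13.3 RPKM in knockout-labelled CSDS libraries 1 to 5, against 12.8, 13.1, 12.4, 12.8 and 13.6 RPKM in knockout-labelled controls 6 to 10. Its log2 difference was 0.05 ± 0.03 (limma adjusted p = 0.318), with a 95% confidence interval of −0.02 to 0.12.

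With limma, 0 of the 6 genes passed in the libraries labelled knockout, where 15% of all genes tested did. At an unadjusted p under 0.05 there were 2, Hbb-bs and Hbb-bt, and by the exact permutation test there were 0. By limma p, Hbb-bs ranked 4523 of all 18259 genes tested, so at least 4523 genes were under 0.05. Leaving out knockout-labelled CSDS 5 put all 4 globin genes past the threshold as lower after CSDS, with log2 differences of −0.62 for Hbb-bs, −0.65 for Hbb-bt, −0.49 for Hba-a1 and −0.49 for Hba-a2 (limma adjusted p between 0.01 and 0.0335). Over all genes, 2747 were called under the knockout label with all libraries and 1658 to 3668 when leaving out a library. In the authors' deposited table, whose control mean takes in both knockout-labelled libraries of conflicting label, the false discovery rates of the 6 genes run between 0.379 and 0.744. The libraries of conflicting label held 51.8 RPKM of Hbb-bs (knockout-labelled 11) and 53.9 RPKM (knockout-labelled 10B), and 0.623 and 0.701 RPKM of Alas2.

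The difference of the CSDS effects, knockout label minus WT, asks whether the response to defeat depends on genotype. It was −2.27 ± 0.45 for Hbb-bs (SE, limma adjusted p = 0.0510) and −2.29 ± 0.46 for Hbb-bt (adjusted p = 0.0519). The differences of effects were −2.04 ± 0.46 for Hba-a1 (adjusted p = 0.0745), −2.05 ± 0.47 for Hba-a2 (adjusted p = 0.0758) and −1.50 ± 0.41 for Alas2 (adjusted p = 0.145). With limma 0 of the 6 genes were called, 5 had an unadjusted p under 0.05, and 0.148% of all genes tested were called. The share of all genes under that unadjusted p is not given here. For Bpgm the difference of effects was 0.02 ± 0.05 (adjusted p = 0.893), with a 95% confidence interval of −0.08 to 0.13.

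Without WT CSDS 3 the standard errors were smaller and those 5 genes passed. The differences of effects were then −1.85 ± 0.24 for Hbb-bs (limma adjusted p = 0.000962), −1.85 ± 0.23 for Hbb-bt (adjusted p = 0.000936), −1.60 ± 0.22 for Hba-a1 and Hba-a2 alike (adjusted p = 0.00167) and −1.09 ± 0.16 for Alas2 (adjusted p = 0.00311). Over all genes, 27 differences of effects were called with all libraries and 16 to 244 when leaving out a library. Hbb-bs and Hbb-bt also passed without WT CSDS 2, WT control 8, WT control 10 or knockout-labelled CSDS 5 (adjusted p between 0.0249 and 0.0432), and Hba-a1 without WT control 10 (adjusted p = 0.0498). With the 3 libraries of conflicting label counted as CSDS, the adjusted p of the 5 genes lay between 0.414 and 0.451.

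After CSDS, the beta globin genes were lower in libraries labelled knockout than in WT. The log2 difference was −1.99 ± 0.40 for Hbb-bs (SE, limma adjusted p = 0.0334) and −2.01 ± 0.41 for Hbb-bt (adjusted p = 0.0349). The differences of Hba-a1 (−1.74 ± 0.41, adjusted p = 0.0607), Hba-a2 (−1.75 ± 0.42, adjusted p = 0.0625) and Alas2 (−1.23 ± 0.37, adjusted p = 0.114) did not pass. So 2 of 6 genes were called lower, where 0.818% of all genes tested were. The groups did not overlap in all 5 of these genes, the knockout-labelled libraries lying lower, as they did for 2.5% of all genes tested, and each had the smallest exact permutation p possible, 0.00794. Bpgm differed by 0.01 ± 0.04 (adjusted p = 0.920), with a 95% confidence interval of −0.07 to 0.09.

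Without WT CSDS 3 all 5 passed in that comparison, with log2 differences of −1.57 for Hbb-bs, −1.57 for Hbb-bt, −1.30 for Hba-a1, −1.30 for Hba-a2 and −0.82 for Alas2 (limma adjusted p between 0.00267 and 0.00608). The mean of the knockout-labelled CSDS libraries was then 0.345 times that of WT for Hbb-bs and 0.437 times for Alas2. Over all genes, 349 were called in this comparison with all libraries and 205 to 478 when leaving out a library. The pair of calls on the beta genes was lost with no filter on low values (adjusted p = 0.0654 and 0.0666) and with the conflicting libraries counted as CSDS (adjusted p = 0.0673 and 0.0659). It was also lost without any 1 of knockout-labelled CSDS 1 to 4 or WT CSDS 1, 4 or 5, with an adjusted p between 0.0503 and 0.0806.

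Between the controls no gene of the 6 was called with limma, where 1.14% of all genes tested were. The globin genes and Alas2 lay a little higher in knockout-labelled controls than in WT controls, by log2 differences of 0.28 ± 0.13 for Hbb-bs, 0.27 ± 0.12 for Hbb-bt, 0.30 ± 0.12 for Hba-a1, 0.30 ± 0.12 for Hba-a2 and 0.27 ± 0.11 for Alas2 (SE, limma adjusted p between 0.271 and 0.325). Their unadjusted p were under 0.05 in 5 cases, and by the exact permutation test Alas2 alone was under it (p = 0.0476). Ranked by limma p, Hbb-bs was 2804 of all 18297 genes tested, so at least 2804 genes were under 0.05. Bpgm differed by −0.01 ± 0.03 (adjusted p = 0.890).

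**Figure D2:**
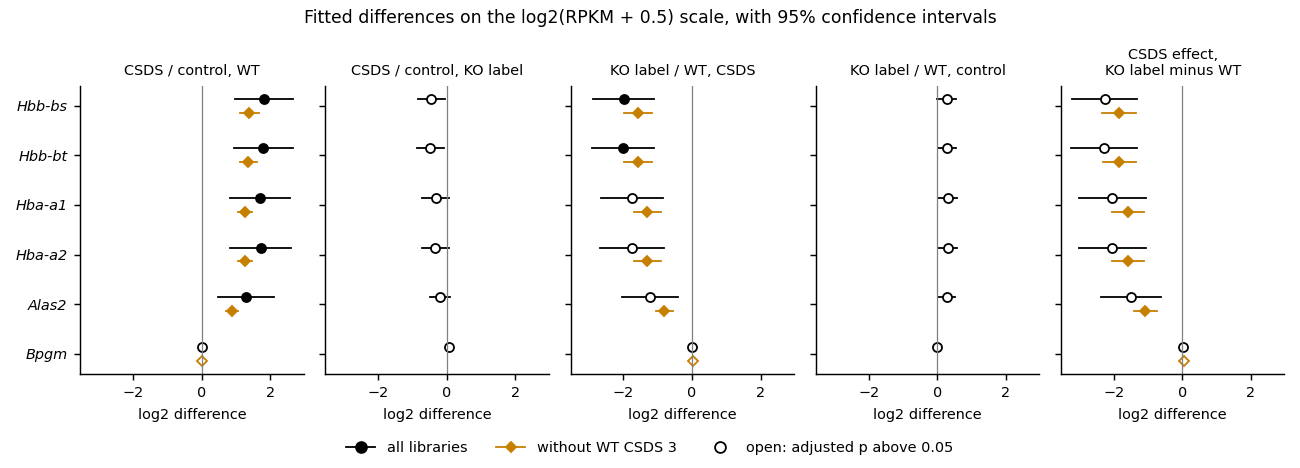
Fitted log2 differences of the 6 genes (rows) in 5 comparisons (panels), with 95% confidence intervals, from all libraries (black) and without WT CSDS 3 (orange); open symbols have a limma adjusted p above 0.05. The WT effect of CSDS on Hbb-bs is 1.82 with all libraries and 1.39 without WT CSDS 3, and leaving out that library shortens the intervals of the 4 globin genes and Alas2; Bpgm lies near 0 in all 5 panels.

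The groups ranked alike for the globin genes. By the median, Hbb-bs stood at 148 RPKM in WT after CSDS, 59.7 in WT controls, 48.9 in knockout-labelled libraries after CSDS and 67.0 in knockout-labelled controls. Every library of WT after CSDS lay above every library of the other 3 groups, and those 3 groups overlapped one another. For Alas2 the medians were 1.69 RPKM in WT after CSDS, 0.600 in WT controls, 0.573 in knockout-labelled libraries after CSDS and 0.975 in knockout-labelled controls, again with WT after CSDS above the rest. Within a library the order of levels was Hba-a2 first, Alas2 last and Bpgm next to last in each of the 23 libraries.

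The ratio between copies hardly moved while the summed level of the 4 genes ran between 177 and 2799 RPKM. The RPKM of Hbb-bt was 0.937 to 0.988 of that of Hbb-bs in WT after CSDS, 0.953 to 1.01 in WT controls, 0.947 to 0.958 in knockout-labelled libraries after CSDS and 0.961 to 0.999 in knockout-labelled controls. Hba-a2 was 1.18 to 1.22 times Hba-a1 in WT after CSDS, 1.17 to 1.20 in WT controls, 1.18 to 1.20 in knockout-labelled libraries after CSDS and 1.18 to 1.20 in knockout-labelled controls. The gene models of Hba-a1 are 1.22 times as long as those of Hba-a2, so the reads given to the alpha copies were close to equal. Such ratios may come from how shared reads were split, as described above for the coding windows.

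Alpha and beta globin share no 75-base stretch in the pair tested, so their ratio is free of that. Summed beta RPKM over summed alpha RPKM was 0.924 to 1.04 in WT after CSDS, against 0.827 to 1.04 in WT controls. It was 0.772 to 0.861 in knockout-labelled libraries after CSDS, against 0.855 to 0.933 in knockout-labelled controls. WT CSDS 3, at 0.924, was the lowest of its group, just below the 0.927 to 1.04 of the other 4 libraries.

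Alas2 kept pace with Hbb-bs. For each 100 RPKM of Hbb-bs there were 0.827 to 1.22 RPKM of Alas2 in WT after CSDS, 0.949 to 1.25 in WT controls, 1.12 to 1.63 in knockout-labelled libraries after CSDS and 0.832 to 1.63 in knockout-labelled controls. All 4 ranges overlap, and WT CSDS 3 stood at 1.22. The ratio of Bpgm to Hbb-bs did not hold: it was 0.0211 to 0.0963 in WT after CSDS, against 0.174 to 0.286 in WT controls.

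Over the 20 libraries, Pearson's r with Hbb-bs on the log2(RPKM + 0.5) scale was 1.00 for Hbb-bt, 0.993 for Hba-a1, 0.993 for Hba-a2, 0.957 for Alas2 and 0.188 for Bpgm. These are descriptions without a test, and the points share the groups, the library depth and, between copies, reads. With the group means taken out and WT CSDS 3 left out (19 libraries), r was 0.940 for Hba-a1, 0.947 for Hba-a2, 0.606 for Alas2 and −0.42 for Bpgm. Alpha and beta globin thus varied together among libraries of the same group.

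**Figure D3:**
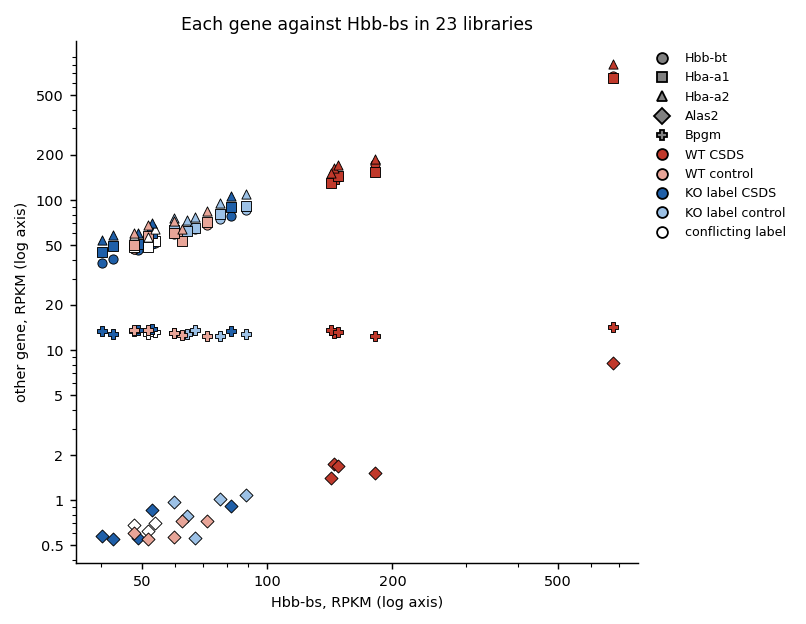
RPKM of each other gene against RPKM of Hbb-bs (both log axes) in 23 libraries; symbols are genes, colours are groups and white symbols are the 3 libraries of conflicting label. Hbb-bt, Hba-a1, Hba-a2 and Alas2 climb along with Hbb-bs from 40.1 to 676 RPKM, and Bpgm keeps a level line between 12.4 and 14.3 RPKM.

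The genes most like Hbb-bs over the 20 libraries, by Pearson's r of log2(RPKM + 0.5), were Ngdn (0.855), Wdfy1 (0.826), Ntsr2 (0.776), Xpnpep1 (0.769), Selenow (0.767), Cxcl12 (0.759), Ndn (0.758) and Rpgrip1 (0.757). Over all 20 libraries none of these came near the values of Hba-a1 or Alas2. Their folds were smaller: Ngdn averaged 11.0 RPKM in WT after CSDS and 9.55 in WT controls. Wdfy1 averaged 8.09 RPKM in WT after CSDS, against 3.89 in WT controls. Without WT CSDS 3 the list began with Adi1 (0.887), Gm2420 (0.883) and Pqlc3 (0.865), and Ntsr2 and Wdfy1 were still among the first 8. Alas2 was then at 0.918. With the group means also removed, the list began with Malsu1 (0.896), Alg12 (0.8625) and Cd320 (0.788). These lay above Alas2 (0.606) but below Hba-a1 (0.940). With the group means removed, Hbq1b, a theta globin gene, had r = 0.773, but 0.249 without WT CSDS 3. The genes most like Bpgm were Rpsa-ps2 (0.801), Rps24 (0.778), Gm14303 (0.774), Rpl9 (0.760) and Rpl32 (0.756), of which Rps24, Rpl9 and Rpl32 encode ribosomal proteins. Without WT CSDS 3 those 3 were no longer among the first 5, which were Gabarapl2 (0.839), Glp1r (0.787), Rpsa-ps2 (0.782), Ccdc153 (0.778) and Hpf1 (0.774).

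Of 11 other globin genes 4 were tested, and 1 of them, Cygb, was called in WT, as lower, where 12.5% of all genes tested were. Hbq1b was at 12.6 RPKM in WT CSDS 3, against 0.481 to 2.77 RPKM in the other 19 libraries of the 4 groups. Its log2 difference between the WT groups was 0.57 ± 0.63 (limma adjusted p = 0.550), and −0.07 ± 0.33 without WT CSDS 3 (adjusted p = 0.898). Its near copy Hbq1a was at 0.619 to 1.10 RPKM in WT after CSDS and 0.688 to 1.78 RPKM in WT controls. The beta-like entries Hbb-bh0, Hbb-bh2 and Hbb-bh3 were listed at 0 in all 20 libraries. The beta-like gene Hbb-bh1 was listed at 0 in 17 of the 20 libraries and reached 0.123 RPKM. Hbb-y, also beta-like, was listed at 0 in 7 and reached 0.160 RPKM. Ngb, the neuroglobin gene of neurons, differed by 0.06 ± 0.22 in WT (adjusted p = 0.879). Cygb, cytoglobin, fell in WT (log2 fold change −0.17 ± 0.04, adjusted p = 0.0177) and in libraries labelled knockout (−0.21 ± 0.05, adjusted p = 0.0152).

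Genes that define red cells and their precursors were near 0 in these libraries. Slc4a1, the anion exchanger of the red cell membrane, was at 0.00387 to 0.113 RPKM in WT after CSDS, with library 3 the highest, against 0.00557 to 0.0170 RPKM in WT controls. The erythroid transcription factor gene Gata1 was listed at 0 in 14 of the 20 libraries and Hemgn, a gene of red cell precursors, in 12. Klf1, the erythroid factor that acts on the adult beta globin gene, was at 0.0584 to 0.138 RPKM in WT after CSDS and 0.0813 to 0.142 in WT controls. Ahsp, the alpha globin chaperone gene, was not analysed here.

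Of 32 genes of the red cell membrane, cytoplasm and maturation, 17 passed the filter on low values, and many of these are also used by other cells. In WT, 1 rose and 4 fell after CSDS, where 9.88% of all genes tested were called higher and 12.5% lower, and the median log2 fold change was −0.00 both on the list and over all genes tested. The transferrin receptor gene Tfrc, which brings iron into cells, rose by 0.40 ± 0.07 in WT (limma adjusted p = 0.00261). The mitophagy receptor gene Bnip3l changed by −0.12 ± 0.02 (adjusted p = 0.00477), Xpo7 by −0.12 ± 0.03 (adjusted p = 0.0116) and the ubiquitin ligase gene Ube2o by −0.07 ± 0.02 (adjusted p = 0.0387), and the fourth was Ank1. Without WT CSDS 3, 1 rose and 2 fell, since Ube2o (adjusted p = 0.0736) and Ank1 no longer passed. A pair of further genes of the list was named after their values were seen. Isg20, an exonuclease gene below the filter, was at 0.290 to 0.739 RPKM in WT after CSDS, with library 3 the highest, against 0.144 to 0.236 RPKM in WT controls, without overlap. Ube2l6, a gene of the ISG15 conjugation pathway, was at 1.28 to 3.20 RPKM in WT after CSDS, again with library 3 the highest. WT controls held 1.21 to 1.49 RPKM, with overlap (log2 difference 0.44 ± 0.17, limma adjusted p = 0.0862). Without WT CSDS 3 the log2 difference of Ube2l6 was 0.30 ± 0.13 (limma adjusted p = 0.144). Knockout-labelled controls held 1.60 to 2.15 RPKM of Ube2l6, which was called higher there than in WT controls. In libraries labelled knockout, 2 rose, Tfrc (0.29 ± 0.07, adjusted p = 0.0183) and Epb41 (0.22 ± 0.06, adjusted p = 0.0229), and Bnip3l fell, where 6.17% of all genes tested were called higher and 8.88% lower.

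Haem synthesis beyond Alas2 changed by small amounts in both directions. Of the 15 other genes on that list, all tested, 3 rose and 2 fell in WT, where 9.88% of all genes tested were called higher and 12.5% lower. Of those that rose, Ppox did so by 0.20 ± 0.03 (limma adjusted p = 0.00247) and Alas1, the synthase of most tissues, by 0.22 ± 0.04 (adjusted p = 0.00428). Cpox changed by −0.24 ± 0.04 (adjusted p = 0.0022) and Slc25a38, the glycine carrier that feeds the pathway, by −0.27 ± 0.06 (adjusted p = 0.0121). In libraries labelled knockout 2 rose, Alas1 (0.24) and Ppox (0.15), and 2 fell, Cpox (−0.18) and Slc25a38 (−0.28). Under that label 6.17% of all genes tested were called higher and 8.88% lower. The last enzyme, Fech, differed by 0.01 ± 0.03 in WT (adjusted p = 0.888). The median log2 fold change on the list was 0.04 in WT and 0.06 in libraries labelled knockout, against 0.00 and −0.01 over all genes tested.

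Around Bpgm, 3 of 10 glycolysis genes tested rose in WT and none fell: Gapdh by 0.18 ± 0.03 (limma adjusted p = 0.00607), Eno1 by 0.18 ± 0.04 (adjusted p = 0.00864) and Pgam1, the related phosphoglycerate mutase, by 0.12 ± 0.03 (adjusted p = 0.00957). With limma 0 of them passed in libraries labelled knockout, against 15% of all genes tested, and Pgam1 differed there by 0.08 ± 0.03 (adjusted p = 0.127). Of 12 iron handling genes tested, 4 rose in WT (Tfrc, the iron transporter gene Slc11a2, Aco1 and the ferritin light chain gene Ftl1) and 1, the transferrin gene Trf, fell. Over all genes tested in WT, 9.88% were called higher and 12.5% lower.

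Markers of other cells in blood and of vessels were read beside the globin genes. Of 25 markers of blood leukocytes, 2 passed the filter and 0 were called with limma in WT, and the summed level of the list was 9.05 to 10.8 RPKM in WT after CSDS, against 8.49 to 12.6 RPKM in WT controls. The neutrophil genes S100a8 and S100a9, named after their values were seen, lay above the controls without overlap. S100a8 was at 0.127 to 0.343 RPKM in WT after CSDS, against 0 to 0.106 RPKM in WT controls, and S100a9 at 0.152 to 0.474 RPKM in WT after CSDS, against 0.0345 to 0.104 RPKM in WT controls. In the knockout-labelled controls, where Hbb-bs was at 59.9 to 88.9 RPKM, S100a9 was at 0.293 to 1.51 RPKM. Ly6g, a further neutrophil marker, was listed at 0 in 17 of the 20 libraries.

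Of 13 platelet markers 2 passed the filter, and 1, Gp1bb, was called in WT. Over the 20 libraries Gp1bb was at 36.8 to 48.7 RPKM, against 0.355 to 2.17 RPKM for Pf4, the other marker past the filter. Whether the Gp1bb reads came from platelets was not tested. Leaving out Gp1bb, which made up most of the list, the other 12 summed to 3.41 to 4.60 RPKM in WT after CSDS, against 2.36 to 3.53 RPKM in WT controls, with overlap, and to 2.55 to 3.17 RPKM in knockout-labelled libraries after CSDS, against 2.51 to 3.55 RPKM in knockout-labelled controls. Gp1bb itself rose in WT (log2 fold change 0.17 ± 0.04, adjusted p = 0.0155) and in libraries labelled knockout (0.19 ± 0.04, adjusted p = 0.0151), and Pf4, a platelet chemokine gene, differed by 0.63 ± 0.21 in WT (adjusted p = 0.0516). Of 11 markers of pericytes and smooth muscle tested, 5 rose in WT, among them Tagln (0.73 ± 0.16, adjusted p = 0.0109) and Myl9 (0.56 ± 0.13, adjusted p = 0.0139), and the list summed to 80.9 to 108 RPKM in WT after CSDS, with library 3 the highest, against 64.1 to 96.3 RPKM in WT controls. Without WT CSDS 3, 4 pericyte and smooth muscle markers rose, Tagln and Myl9 still among them. Of 20 endothelial markers 3 rose and 3 fell in WT, against 1 and 3 without WT CSDS 3. The endothelial list summed to 361 to 401 RPKM in WT after CSDS, against 309 to 415 RPKM in WT controls. Over all genes tested in WT, with all libraries, 9.88% were called higher and 12.5% lower.

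In libraries labelled knockout 9 endothelial markers fell and 1 rose, with Cldn5 at −0.82 ± 0.10 (limma adjusted p = 0.000996). Of these, Cldn5, Flt1 and Slc16a1 also fell and Slco1a4 also rose in WT, with Cldn5 at −0.48 ± 0.07 (limma adjusted p = 0.00129). Under the knockout label 8 of 12 meningeal fibroblast markers fell, with Dcn at −0.79 ± 0.07 (limma adjusted p = 0.000252). Of all genes tested there, 6.17% were called higher and 8.88% lower. The meningeal list summed to 41.6 to 76.9 RPKM in knockout-labelled libraries after CSDS, against 70.0 to 132 RPKM in knockout-labelled controls. In WT the meningeal list summed to 77.7 to 115 RPKM after CSDS, against 35.9 to 140 RPKM in controls, and the choroid plexus list to 2926 to 3768 RPKM after CSDS, against 25.7 to 4945 RPKM in controls. The part of blood content, vessel content or dissection in the haemoglobin differences was not tested.

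**Figure D4:**
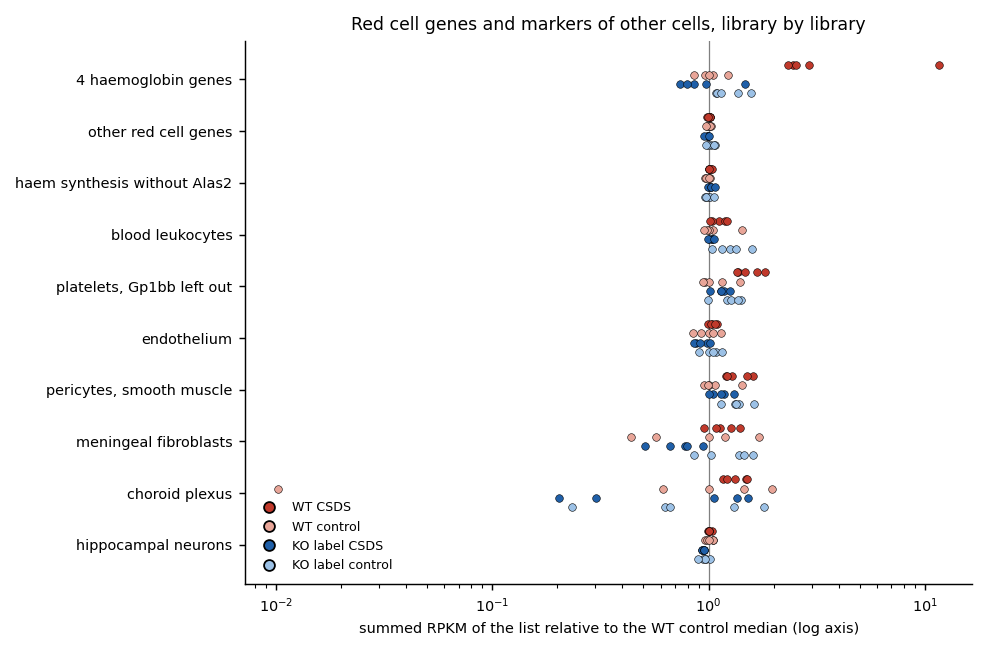
Summed RPKM of the 4 haemoglobin genes and of marker lists in each of the 20 libraries, divided by the median of the WT controls (log axis), with points as libraries and colours as groups. The haemoglobin sum reaches 2799 RPKM in WT CSDS 3, against a WT control median of 239.7 RPKM, while the other red cell genes and haem synthesis without Alas2 stay near 1 in all 4 groups.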

How the data were processed

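Hippocampal poly(A) RNA of 23 libraries was read as 75-base single ends with an unstranded kit, per the labels' protocols, and aligned with STAR to mm10, per the submitters' processing notes. The counter, its gene models and the aligner's version are items not given in the sources used here. The authors deposited RPKM for 39017 genes in 1 table per genotype, along with group means of RPKM. Further columns, per the file headers, hold an edgeR log2 fold change of control over CSDS with a mean log2 abundance, a likelihood ratio score, and p-values with false discovery rates.

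Here RPKM were tested as log2(RPKM + 0.5) with limma 3.58.1 (trend, two-sided, R 4.3.3) for genes with a mean of at least 0.5 RPKM over the libraries fitted, and Benjamini-Hochberg adjustment at 0.05 over all genes tested. All 6 genes passed that filter in each of the 5 comparisons, which share libraries where they cross genotypes. Exact permutation tests went with single genes. Of low values in 11588 single-exon genes, 94.4 to 95.5% lay within 0.05 of a whole read, but 76.0 to 78.2% in genes of several exons, so no count test was run. The fit was tested on simulated data.

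The 6 genes and all gene lists were chosen with earlier results of these data known. Named genes are all 6, at most 4 of smallest p per list among those called, 6 defining red cell genes, Ngb, Cygb and the genes most correlated with Hbb-bs or Bpgm; names outside this rule belong to counts of 5 or fewer, copies and overlapping genes, or are said to be chosen after their values were seen. Some genes that the rule names are not reported here. Alternatives were other pseudocounts and filters, array weights, centring, 1 fit of all groups, other placings of the conflicting libraries, a replicate block and leaving out each library. Promoters came from RefSeq (GRCm38.p6), matched for all 6 genes by symbol, and coding sequences from GENCODE.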

Additional observations from a re-analysis of the deposited data

Results flagged for a closer look

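Among 64 combinations of a gene and a group, 10 held a library far from its group (Dixon's test at the 95% level, critical value 0.71 for 5 libraries). The test assumes normal values, whereas RPKM were used as they stand, some near 0. The genes were also chosen with earlier results of these data known. The 10 are therefore a description and were not set against chance. The library WT CSDS 3 was the highest of the WT CSDS group in 7 of them. It held 676 RPKM of Hbb-bs, 668 of Hbb-bt, 654 of Hba-a1, 801 of Hba-a2 and 8.26 of Alas2, and also 12.6 RPKM of the theta globin gene Hbq1b and 0.113 RPKM of the red cell anion exchanger gene Slc4a1. The 4 adult globin genes share reads within each pair, so these are fewer independent values than genes. Bpgm was not among them.

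In knockout-labelled controls, library 6 had the highest Hbq1b, at 2.62 RPKM, along with the highest Hbb-bs of that group. Library 10 had the highest Hemgn, at 0.0152 RPKM, and library 7 the highest Gata1, at 0.0160 RPKM, each with the rest of the group at 0. In such a group any single value above 0 passes Dixon's test.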

How the results depend on the processing

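Of 360 refits of a gene's log2 difference that each left out 1 library, 318 kept the direction and the side of the threshold, 17 lost a call and 21 gained one; of 325 under other settings, 289 kept both. Bpgm, never called, changed sign in 5. Leaving out a library, it ran between −0.000912 and 0.0486 for the difference of effects (below 0 without WT CSDS 4), between −0.0314 and 0.00131 for controls (above 0 without WT control 9) and between −0.0157 and 0.0338 after CSDS (below 0 without knockout-labelled CSDS 1 or WT CSDS 4). After CSDS it was −0.0020 with the conflicting libraries placed by the treatment field. Of the 6 genes, 5 were called in WT, 4 to 5 when leaving out a library and 0 with the treatment field; in libraries labelled knockout 0, and 0 to 4 (4 without CSDS 5). For the difference of effects 0 were called, 2 with a pseudocount of 1, 2 with a mean of at least 2 RPKM (which leaves Alas2 untested), 4 with array weights, 2 with centring, 4 with the conflicting libraries placed by title, 2 without both controls numbered 10, and 0 to 5 when leaving out a library (5 without WT CSDS 3). After CSDS 2 were called, 0 with no filter, 5 with all 4 groups in 1 fit, 0 with the treatment field and 0 to 5 when leaving out a library; between controls 0 throughout.

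Over all genes, 4093 were called in WT, 3077 to 4016 without a library and 1240 with the treatment field; 2747 for the knockout label, 1658 to 3668 without a library and 143 with the treatment field. For the difference of effects 27 were called, 16 to 244 without a library, 172 with array weights, 1 with the treatment field, 98 by title and 181 without both controls 10. Between controls 209 were called, 68 to 218 without a library, 514 with array weights, 116 with centring, 722 in 1 fit of 4 groups and 978 by title; after CSDS 349 were, and 205 to 478 without a library. The cause of these shifts was not tested. Deviations from the group means of same-numbered libraries correlated at −0.11 to 0.37 for controls, where for 3 of 5 numbers (6, 8 and 10) the knockout-labelled library correlated best with its own number, and at −0.00 to 0.10 after CSDS; since not every pair was above 0.1, the numbers were not taken as pairs. With a replicate block 45 genes were called between controls and 162 after CSDS, and 0 of the 6 genes after CSDS. In settings chosen after seeing the data, the log2 difference of Hbq1b in WT was −0.0733 without WT CSDS 3, against 0.566, and 3 rather than 5 red cell genes beyond the 6 were called. Depth limits Alas2, with 50 to 1044 reads.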
